A study of Nicotiana tabacum with 30 samples.

Results

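The genes described here are tobacco leaf transcripts that rose at least about 2-fold in the cultivar K326 over 8 h of drought, did not do so in the drought-resistant mutant M28, and already stood higher in M28 before drought began. They were chosen by measured values, namely the levels in the 0 h and 8 h libraries. A level is the log2 of FPKM plus 1, averaged over the 3 libraries of a group, and FPKM is the number of fragments per kilobase of transcript, scaled by the size of the library. A gene was taken if K326 rose by at least 1 from 0 to 8 h and M28 exceeded K326 by at least 0.6 at 0 h. Over the same 8 h M28 could rise by at most 0.5, and a fall of any size was allowed. Genes averaging under 1 FPKM were left aside. The conditions were met by 100 of the remaining 19599 genes, which is 0.51% of them and 5.61% of the 1784 genes that rose by at least 1 in K326.

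RNA from Nicotiana tabacum was sequenced from 2 genotypes at 0, 1, 2, 4 and 8 h, giving 10 groups of 3 libraries, or 30 in all. K326 is a flue-cured tobacco cultivar, and M28 is a mutant line obtained from it with ethyl methanesulfonate (EMS), an alkylating agent that leaves point mutations across the genome. The submitters describe M28 as having enhanced drought resistance, and the labels name no transgene in either line. The protocol names both natural drought and drought simulated with mannitol, but the treatment of a given library is not stated.

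Seedlings were grown in pots under a light-dark cycle, and a library without drought was available at 0 h only. Time under drought and time of day therefore changed together. All differences between genotypes also rest on a single mutant line, whose mutations are not listed in the labels. The tissue is labelled leaf, although the source field speaks of seeds, and this could not be checked against marker genes because the gene IDs of the table are not paired with names. The labels do not say that the 3 libraries of a group came from separately grown plants, so a p-value measures the spread between these samples, which may in part be technical.

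Leaves that lose water accumulate the hormone abscisic acid, which binds soluble receptors and thereby releases a class of protein kinases from inhibition. These kinases activate transcription factors that raise genes for protective proteins, osmolyte synthesis and transport, while abscisic acid also closes the stomata. A line can meet drought by inducing such genes faster or by holding some of them high beforehand. The genes chosen here stood higher in M28 at 0 h by construction. The rule reads only 0 and 8 h, so it does not exclude a rise in M28 between these times. Whether the chosen genes are of the kind described was not tested. Which pathways they belong to is not known, since 0 of the 35519 IDs could be matched to RefSeq genes of ASM71507v2.

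FPKM totals ranged from 753424 to 855427 per library, and Pearson's r between libraries of one group, on the log2 scale, from 0.969 to 0.989. Read depth was not known, but the steps between low values gave an estimate of relative depth. By that estimate the third M28 library at 8 h had 0.479 of the median depth, and the other 29 libraries lay between 0.889 and 1.25. This shallow library entered the rule through the 8 h level of M28, and without it 86 genes met the rule, 79 of them among the 100.

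The members covered a wide range of abundance. Mean FPKM over all libraries ran from 1.38 to 1312 with a median of 15.7, against 12.1 for all tested genes, and 9 members exceeded 100 FPKM. Within a genotype, all 100 averaged at least 1 FPKM in K326 and 99 did in M28. In the K326 group at 0 h, 13 members were under 1 FPKM, and 2 of them were listed at 0 in all 3 libraries.

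The values that chose the members are given as a description only. The median rise in K326 from 0 to 8 h was 1.14 on the log2 scale, with a highest value of 3.05. In M28 the median change was 0.31 and the lowest −2.14, and the change was above 0 in 79 members. The median excess of M28 over K326 at 0 h was 1.05, with a highest value of 5.60. All 3 M28 libraries lay above all 3 K326 libraries at 0 h for 97 members, where 43% of all genes showed this, and all 3 K326 libraries at 8 h lay above those at 0 h for 97, against 44.7% of all genes.

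The thresholds cut through a continuous range of genes. Just inside and just outside them, the K326 rise was 1.0006 and 0.9974, the M28 change 0.497 and 0.502, and the 0 h difference 0.620 and 0.594. The 0 h libraries of both genotypes each entered 2 of the 3 conditions, so a low K326 value or a high M28 value at 0 h favours membership on its own. To show how far this matters, the rule was applied to 2 of the 3 replicate numbers and read in the one left out. Leaving out replicate number 1, 2 or 3 chose 180, 131 or 103 genes, and in the replicate not used M28 exceeded K326 at 0 h in 93.3%, 94.7% or 89.3% of them, against 72.9%, 71.1% or 68.7% of all genes. The whole rule held again in 15%, 29.8% or 35.9% of the chosen genes, against 1.03%, 1.25% or 1.58% of all genes.

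Before drought the 100 members were lower in K326 than tested genes at large, and by 8 h they were higher. The median over members, averaged over the 3 libraries, was 2.81 ± 0.047 (SD, n = 3) in K326 at 0 h and 3.48 ± 0.312 at 1 h, then 3.74 ± 0.050 at 2 h, 3.76 ± 0.097 at 4 h and finally 4.01 ± 0.047 at 8 h. In M28 it was 4.08 ± 0.104 at 0 h and 4.38 ± 0.139 at 1 h, then 4.24 ± 0.112 at 2 h, 4.30 ± 0.036 at 4 h and finally 4.35 ± 0.131 at 8 h. The medians of M28 at 0 h and K326 at 8 h differed by less than the SD of the former. The rule set both levels above that of K326 at 0 h, so this closeness is a description only. Single members could lie far apart, as Nitab4.5_0000028g0320 did, with means of 149 FPKM in M28 at 0 h and 5.54 in K326 at 8 h. At 1, 2 and 4 h, which the rule did not use, every M28 library had a higher median than every K326 library.

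The K326 libraries at 1 h stood apart from each other, with medians over members of 3.16, 3.49 and 3.78. The median over all tested genes moved much less, from 3.47 at 0 h to 3.70 at 8 h in K326 and from 3.72 to 3.85 in M28. M28 therefore also lay above K326 across all genes, by a median of 0.22 at 0 h. The values as deposited are not scaled to remove this shift.

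**Figure D1:**
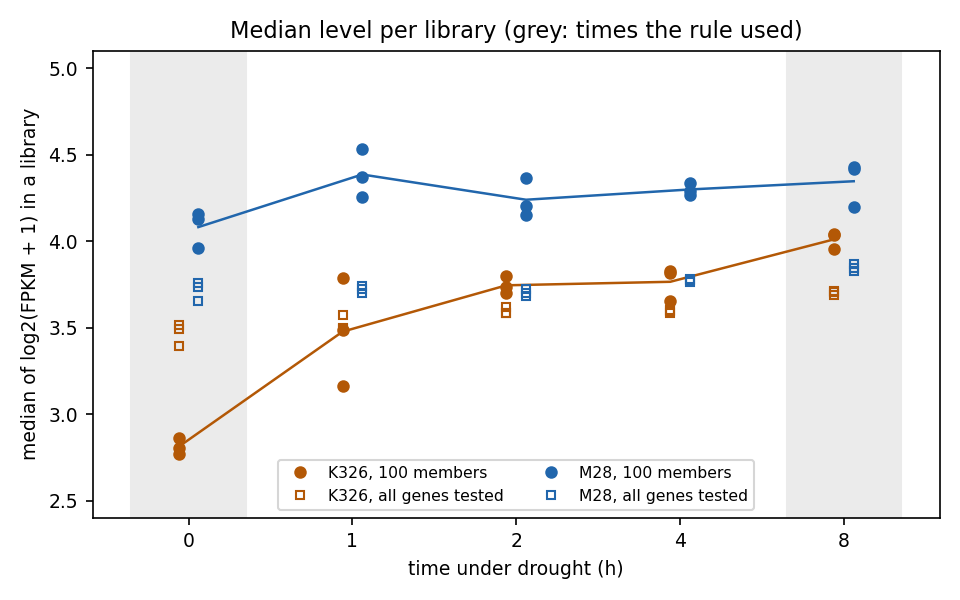
Median of log2(FPKM + 1) in each library, by time under drought in h, with K326 in orange and M28 in blue. Filled circles are the 100 members, lines join their group means, open squares are all tested genes, and grey bands mark the times the rule used. The members rise from 2.81 to 4.01 in K326 and stay between 4.08 and 4.38 in M28.

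The rise in K326 was spread over the whole time course. The median step was 0.50 from 0 to 1 h, 0.20 from 1 to 2 h, 0.11 from 2 to 4 h and 0.33 from 4 to 8 h, where the first and last steps contain libraries that chose the members. By 1 h, 42.1% of the 0 to 8 h rise was present in the median member, by 2 h 60.1% and by 4 h 74.0%. These percentages are measured from the 0 h level and against a rise the rule asked for, so they are a description. K326 was highest at 8 h for 76 members and lowest at 0 h for 92. The rule favours both, since it asks for a rise in K326 from 0 to 8 h.

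The K326 course can be set against the 0 h level of M28, which the rule placed above that of K326, so these counts are a description. The K326 group mean had reached the M28 mean of 0 h in 7 members at 1 h, in 16 at 2 h, in 30 at 4 h and in 61 at 8 h. In M28 the highest time was 8 h for 39 members, 4 h for 30, 1 h for 18 and 0 h for 10. The range over the 5 times had a median of 1.21 in K326 and 0.58 in M28, and it was at least 1 in all 100 members in K326, as the rule requires, and in 19 in M28.

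The comparison of genotypes at 1, 2 and 4 h asked whether the excess of M28 was still there while K326 responded. Tests were moderated linear models over all 19599 genes (limma, two-sided, Benjamini-Hochberg adjusted p below 0.05). At 1 h, 72 of 100 members were higher in M28 and 0 were lower, against 31.9% and 7.11% of all genes. At 2 h, 55 were higher and 3 lower, against 19.7% and 7.56%, and at 4 h 47 were higher and 3 lower, against 28.4% and 8.19%.

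The rule requires a smaller difference at 8 h than at 0 h, since K326 had to rise by more than M28. At the times it did not use, the median difference fell from 0.64 at 1 h to 0.38 at 4 h. The median of M28 minus K326 over members was 1.05 at 0 h and 0.64 at 1 h, then 0.45 at 2 h, 0.38 at 4 h and finally 0.21 at 8 h, where the first and last come from libraries that chose the members. Over all genes it was 0.22, 0.20, 0.10, 0.17 and 0.13 at the same times. M28 exceeded K326 in 98 members at 1 h, 86 at 2 h and 89 at 4 h, whatever the test, against 74.9%, 63.4% and 71.4% of all genes. It was called higher by at least 1 on the log2 scale in 27, 14 and 14, against 2.73%, 2.01% and 2.44%. All 3 M28 libraries lay above all 3 K326 libraries in 74 members at 1 h, 66 at 2 h and 57 at 4 h, against 36.4%, 32.3% and 38.8% of all genes. At 8 h the same held for 42 members against 31.9% of all genes, and M28 at 8 h lay above M28 at 0 h in 41 members against 35.6%, both being times the rule used.

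**Figure D2:**
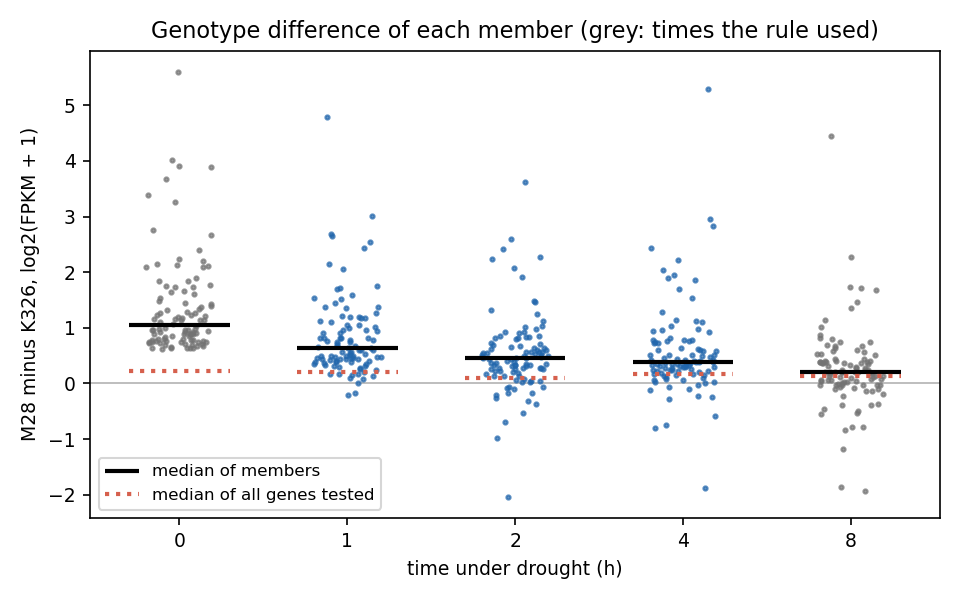
M28 minus K326 on the log2(FPKM + 1) scale for each of the 100 members (dots) by time in h, with the median of members as a black bar and that of all tested genes as a dotted red bar. Grey dots are times the rule used. The black bar falls from 0.64 at 1 h to 0.38 at 4 h, and the red bar stays between 0.10 and 0.22. The black bars of 1.05 at 0 h and 0.21 at 8 h reflect the rule, which requires a fall between these times.

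The level of these counts depends on how libraries are scaled. With median-of-ratios scaling, which brings the median difference over all genes to about 0, the members' median difference was 0.43 at 1 h, 0.36 at 2 h and 0.23 at 4 h, and M28 was above K326 in 91, 81 and 75 members. Then 48, 45 and 31 members were called higher in M28 at 1, 2 and 4 h and 1, 3 and 5 lower, and of all genes 10.8%, 11.2% and 12% were called higher and 14.7%, 12.2% and 14.9% lower. Membership changed more: only 34 of the 100 met the rule on the rescaled values, on which 57 genes met it in all. An alternative added after the data were seen kept only these 34. Of them 21 were higher in M28 over 1, 2 and 4 h together and 1 was lower, against 21.5% and 23.7% of all genes on the rescaled values, and their median difference was 0.51.

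Averaged over 1, 2 and 4 h, 74 members were higher in M28 and 3 lower, against 45% and 11.9% of all genes. The members' median was 0.49 and their range −0.69 to 4.57, and 18 members were called higher by at least 1, against 1.96% of all genes. Called higher at each of the 3 times were 43 members, against 12.1% of all genes. A further 13 were called at 2 of the times and 19 at 1, close to the 12.4% and 19.1% of all genes, and 25 were called at none, against 56.5%.

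The 43 members called at every time and the 25 called at none differed in other values too. The 43 had a median 0 h difference of 1.37 and a median abundance of 24.7 FPKM, and the 25 had 0.80 and 7.08 FPKM. The 43 still had a median difference of 0.43 at 8 h, and the 25 had −0.03. On rescaled values, 14 of the 43 and 10 of the 25 met the rule. These classes were formed from the tests, so no test was made between them, and the part that low abundance and the choice on 0 h values have in the 25 was not tested.

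**Figure D3:**
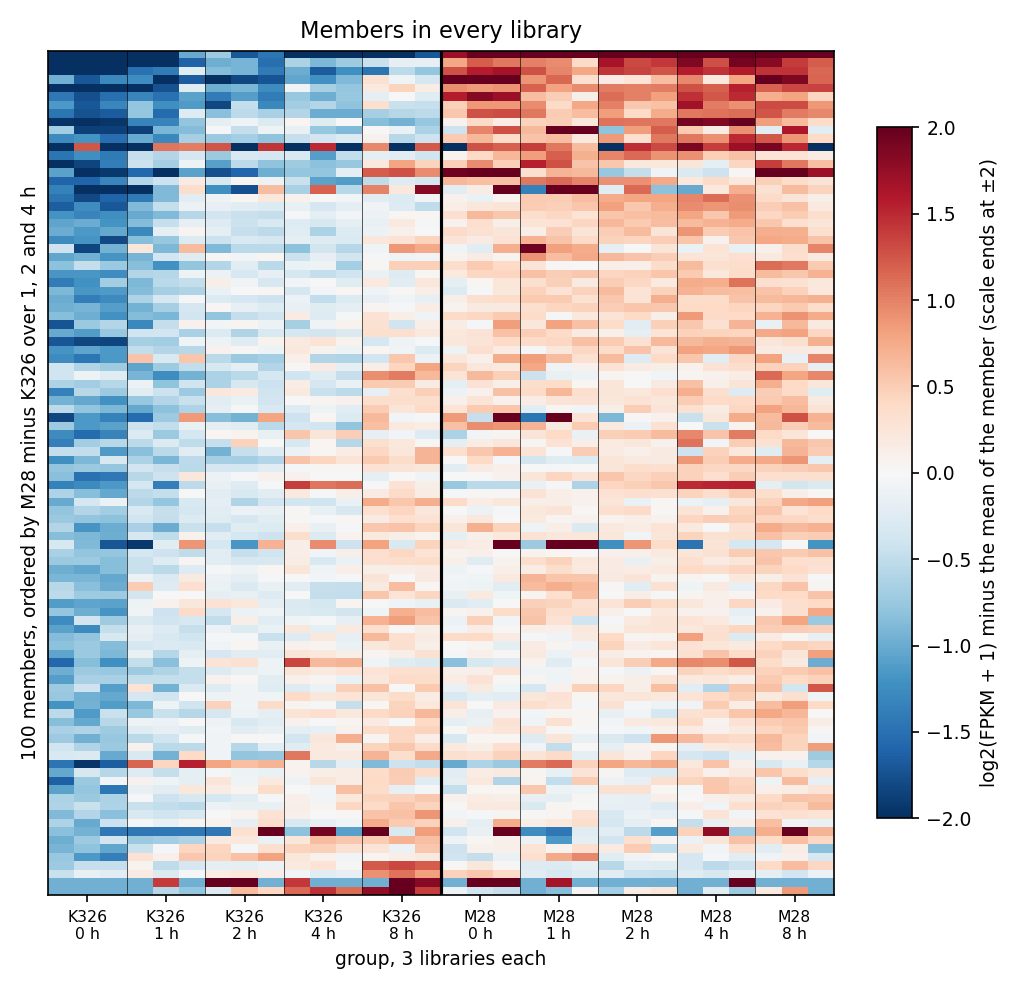
Level of each of the 100 members (one per line) in the 30 libraries, as log2(FPKM + 1) minus the mean of that member, ordered from the highest to the lowest difference between genotypes over 1, 2 and 4 h. Columns are libraries, 3 per group, and colours end at 2 above (red) or below (blue). K326 columns mostly turn from blue at 0 h to pale or red at 8 h, but the top line, Nitab4.5_0000028g0320, stays blue there. The M28 columns of the upper lines are red at all times.

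Nitab4.5_0000028g0320 had the largest difference between genotypes. In K326 it stood at 2.04, 1.67 and 2.09 FPKM at 0 h, 1.98, 1.59 and 13.1 at 1 h, 16.2, 7.75 and 9.38 at 2 h, 5.61, 2.45 and 3.45 at 4 h, and 4.31, 4.59 and 7.71 at 8 h. In M28 it stood at 92.2, 209.5 and 145 FPKM at 0 h, 175, 119 and 111 at 1 h, 142, 143 and 142 at 2 h, 189, 153 and 209 at 4 h, and 165, 145 and 109.9 at 8 h. No K326 library came near the lowest M28 library, and M28 was high at all times. Averaged over 1, 2 and 4 h the difference was 4.57 ± 0.236 on the log2 scale (SE, limma, adjusted p = 3.69e-14). In K326 it was higher at 2 h than at 1 h, by 1.28 ± 0.408 (limma, adjusted p = 0.0309), and lower at 4 h than at 2 h, by a log2 change of −1.31 ± 0.408 (limma, adjusted p = 0.0324). One K326 library at 1 h, the third, was already at the level of the 2 h libraries.

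Nitab4.5_0000359g0110 came next among members at least 5 FPKM in mean, and it rose in both genotypes. In K326 it stood at 35.3, 31.0 and 34.99 FPKM at 0 h, 42.3, 42.8 and 57.8 at 1 h, 91.3, 94.2 and 62.8 at 2 h, 116, 96.0 and 109 at 4 h, and 132, 159.8 and 159.8 at 8 h. In M28 it stood at 307, 417 and 375 FPKM at 0 h, 362, 348 and 236 at 1 h, 566, 449.9 and 483 at 2 h, 658, 439 and 679 at 4 h, and 637, 477 and 416 at 8 h. Groups of the same time never overlapped, and the highest K326 library stayed under the lowest M28 library at any time. The averaged difference was 2.57 ± 0.108 (SE, limma, adjusted p = 5.4e-16). From 1 to 4 h it rose by 1.16 ± 0.188 in K326 (limma, adjusted p = 2.94e-05) and by 0.91 ± 0.188 in M28 (limma, adjusted p = 0.000863).

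Nitab4.5_0000630g0010 was the most abundant member. The K326 libraries had 524, 484 and 517 FPKM at 0 h, 601, 652 and 811 at 1 h, 919, 889 and 867 at 2 h, 1173, 1064 and 1167 at 4 h, and 1107, 1238 and 1233 at 8 h. The M28 libraries had 1517, 1900 and 1756 FPKM at 0 h, 1540, 1605 and 1464 at 1 h, 1765, 1834 and 1864 at 2 h, 2080, 1757 and 2176 at 4 h, and 1607, 1710 and 1543 at 8 h. K326 climbed steadily to 4 h without reaching any M28 library. The averaged difference was 1.00 ± 0.0565 (SE, limma, adjusted p = 1.95e-13).

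Nitab4.5_0000469g0170, the second most abundant, had no called genotype difference by 4 h. In K326 it had 152, 153 and 142 FPKM at 0 h, 267, 237 and 328 at 1 h, 267, 253 and 280.2 at 2 h, 289, 278 and 283 at 4 h, and 345, 289 and 328 at 8 h. In M28 it had 277, 272 and 328 FPKM at 0 h, 462, 425 and 424 at 1 h, 325, 346 and 303 at 2 h, 299.9, 289 and 333 at 4 h, and 314, 354 and 283 at 8 h. Both genotypes were higher at 1 h than at 0 h, and only M28 came down again. The difference was 0.67 ± 0.0991 at 1 h (SE, limma, adjusted p = 1.19e-05), 0.28 ± 0.0991 at 2 h (limma, adjusted p = 0.0362) and 0.11 ± 0.0991 at 4 h (limma, adjusted p = 0.389).

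**Figure D4:**
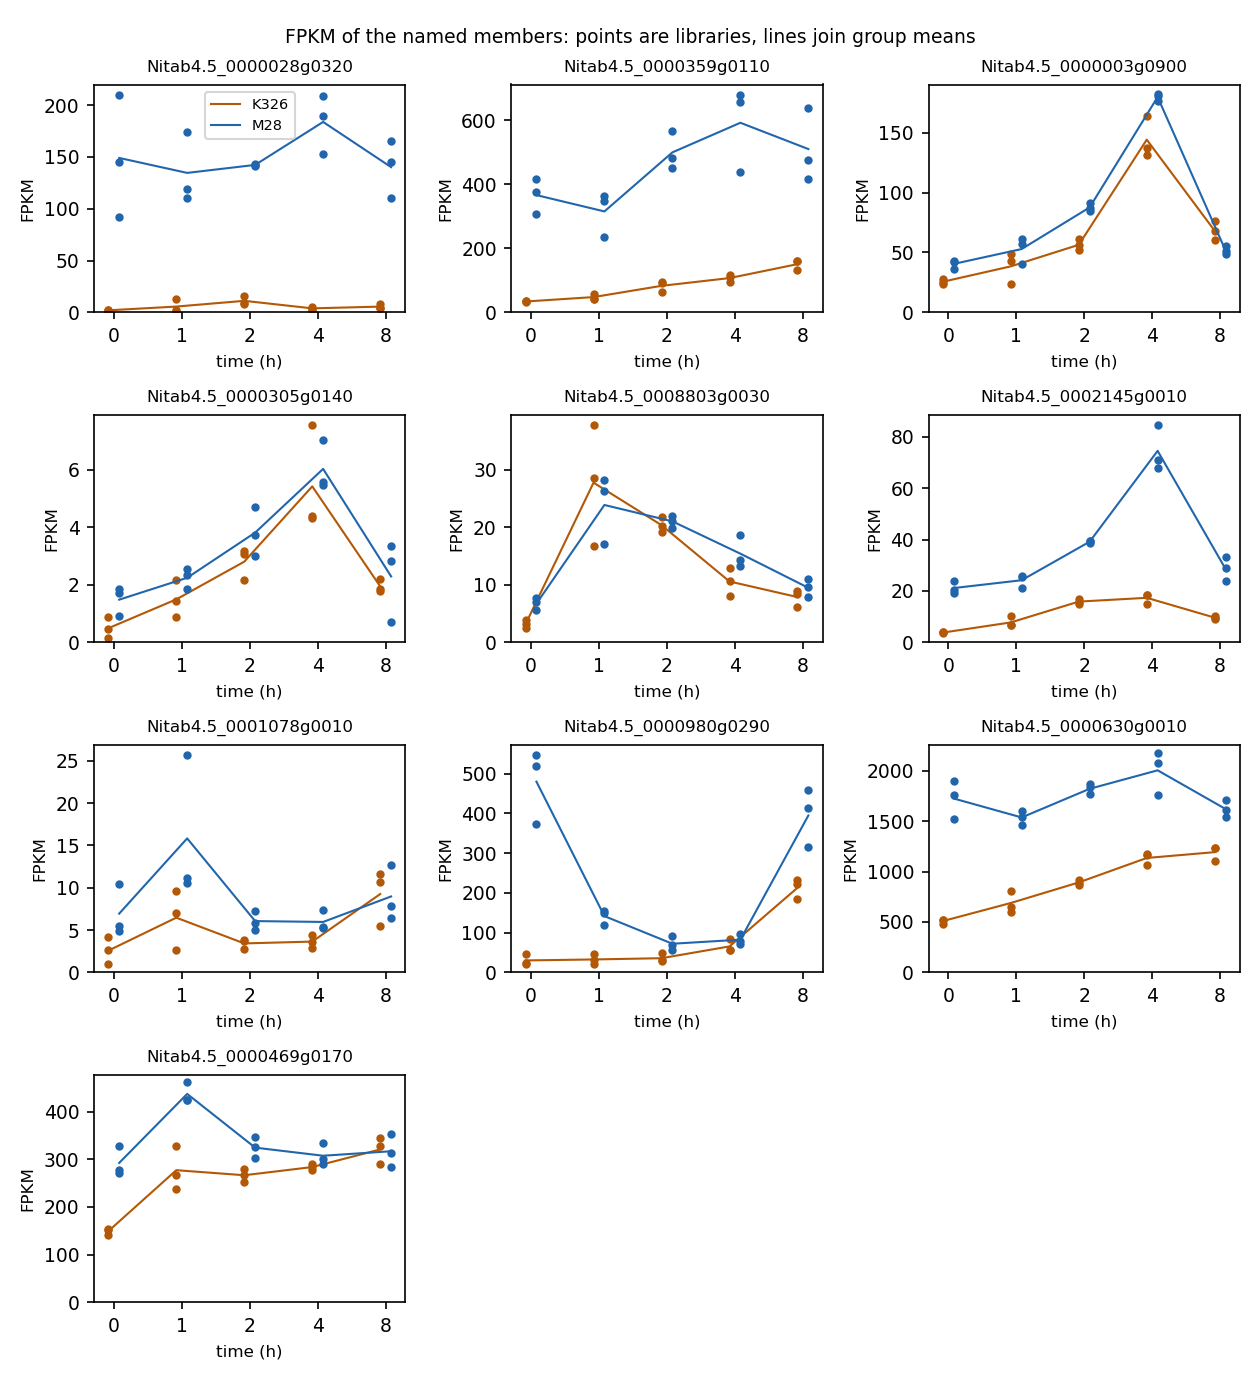
FPKM of 10 named members by time in h, K326 in orange and M28 in blue, with one point per library and lines through the group means. Each panel has its own linear axis from 0. Of these members, only Nitab4.5_0000359g0110, Nitab4.5_0000980g0290 and Nitab4.5_0001078g0010 also met the rule under median-of-ratios scaling. Nitab4.5_0000028g0320 and Nitab4.5_0000359g0110 keep the genotypes apart at all times, while Nitab4.5_0000980g0290 falls and returns in M28 and Nitab4.5_0000003g0900 peaks at 4 h in both.

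Within K326, the change from 1 to 4 h was read as a part of the response that the rule did not use. From 1 to 4 h, 44 members rose and 3 fell (limma, adjusted p below 0.05), against 19.9% and 12.2% of all genes, and the median change was 0.38, against 0.08 over all genes. From 1 to 2 h, 25 rose and 1 fell, against 12.1% and 5.97%. From 2 to 4 h, 17 rose and 5 fell, against 6.96% and 5.94%. Without the first K326 library at 2 h, the 26 calls of the first interval became 17 and the 22 calls of the second became 12. The second count was also 14 without the second or the third K326 library at 2 h, and 13 without the first or the third at 4 h.

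Within M28, 20 members rose and 9 fell from 1 to 4 h, against 12.2% and 8.97% of all genes, and the median change was 0.17, against 0.04. From 1 to 2 h, 5 rose and 4 fell, against 2.35% and 1.91%, and from 2 to 4 h, 7 rose and 1 fell, against 5.48% and 3.61%. The 9 calls from 1 to 2 h became 5 without the third library at 1 h or the first at 2 h, and 4 without the second at 2 h. The 8 calls from 2 to 4 h became 4 without the first library at 2 h or the third at 4 h, and 5 without the second at 2 h. From 1 to 4 h, 18 members rose in both genotypes, against 9.32% of all genes, and 25 rose in K326 with no call in M28, against 10.6%. A call for a fall in both was made for 2, against 5.65%, and 45 were called in neither, against 61.7%. The 2 sets of calls come from separate libraries, and the difference between genotypes was tested separately for each gene.

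Nitab4.5_0000003g0900 showed the largest rise from 1 to 4 h among members of at least 5 FPKM, and did so in both genotypes. The K326 libraries had 23.8, 25.2 and 27.6 FPKM at 0 h, 48.5, 23.6 and 43.1 at 1 h, 56.2, 51.9 and 60.9 at 2 h, 164, 132 and 137 at 4 h, and 60.5, 76.1 and 67.5 at 8 h. The M28 libraries had 36.4, 42.4 and 42.5 FPKM at 0 h, 56.7, 61.4 and 40.4 at 1 h, 84.7, 86.7 and 91.3 at 2 h, 177, 180.3 and 182 at 4 h, and 55.1, 48.4 and 51.0 at 8 h. Both courses peaked at 4 h and fell by 8 h, so the 0 and 8 h values of the rule do not register a peak that both genotypes had. The rise from 1 to 4 h was 1.94 ± 0.167 in K326 (SE, limma, adjusted p = 1.55e-09) and 1.77 ± 0.167 in M28 (limma, adjusted p = 1.25e-08). The difference between these changes was −0.17 ± 0.237 (limma, adjusted p = 0.837).

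A level at least 1 above both the 0 and the 8 h level at some time between was found in some members. In M28 it was found for 6, against 0.857% of all genes, and in K326 for 3, against 1.13%. These counts are also measured against levels that chose the members, and are given as a description. Nitab4.5_0002145g0010 was among the 6. In K326 it had 3.92, 3.50 and 3.95 FPKM at 0 h, 6.603, 6.56 and 10.1 at 1 h, 15.8, 17.0 and 14.7 at 2 h, 18.5, 15.1 and 18.3 at 4 h, and 9.57, 8.93 and 10.3 at 8 h. In M28 it had 19.0, 24.0 and 20.3 FPKM at 0 h, 25.3, 26.0 and 21.3 at 1 h, 39.4, 39.3 and 38.8 at 2 h, 71.1, 67.8 and 84.6 at 4 h, and 33.0, 28.8 and 23.7 at 8 h. Both genotypes climbed to 4 h, with every M28 library above every K326 library of any time. It rose from 1 to 4 h by 1.58 ± 0.131 in M28 (SE, limma, adjusted p = 1.27e-09) and by 1.09 ± 0.131 in K326 (limma, adjusted p = 4.77e-07).

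Nitab4.5_0000305g0140 was a low-abundance member with a course of the same kind. The K326 libraries had 0.142, 0.878 and 0.452 FPKM at 0 h, 1.43, 0.889 and 2.16 at 1 h, 3.09, 3.16 and 2.17 at 2 h, 7.55, 4.31 and 4.40 at 4 h, and 2.199, 1.85 and 1.78 at 8 h. The M28 libraries had 0.904, 1.70 and 1.85 FPKM at 0 h, 2.54, 1.87 and 2.33 at 1 h, 2.998, 3.74 and 4.71 at 2 h, 5.58, 5.48 and 7.03 at 4 h, and 3.35, 2.83 and 0.697 at 8 h. The genotypes overlapped at every time but 0 h, and the lowest M28 value at 8 h came from the shallow library. It rose from 1 to 4 h by 1.36 ± 0.271 in K326 (SE, limma, adjusted p = 0.000347) and by 1.11 ± 0.271 in M28 (limma, adjusted p = 0.00383).

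Nitab4.5_0008803g0030 went the other way after an early peak. In K326 it had 3.83, 2.44 and 3.21 FPKM at 0 h, 28.6, 16.8 and 37.9 at 1 h, 21.9, 19.1 and 20.2 at 2 h, 12.98, 8.08 and 10.7 at 4 h, and 6.23, 8.98 and 8.41 at 8 h. In M28 it had 5.58, 7.68 and 6.94 FPKM at 0 h, 26.3, 28.2 and 17.2 at 1 h, 22.0, 19.96 and 21.1 at 2 h, 14.3, 18.7 and 13.3 at 4 h, and 9.61, 10.9 and 7.90 at 8 h. Both genotypes were highest at 1 h and overlapped at 1, 2 and 8 h. From 1 to 4 h the log2 change was −1.26 ± 0.218 in K326 (SE, limma, adjusted p = 6.76e-05) and −0.58 ± 0.218 in M28 (limma, adjusted p = 0.0583).

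Nitab4.5_0001078g0010 was the member named for a fall in M28. There it had 25.7, 11.2 and 10.6 FPKM at 1 h and 5.30, 7.32 and 5.24 at 4 h, and in K326 it had 7.03, 2.68 and 9.66 at 1 h and 2.90, 4.36 and 3.64 at 4 h. One M28 library at 1 h stood far above the others. The M28 change of −1.18 ± 0.374 (SE, limma, adjusted p = 0.0251) became −0.79 with an adjusted p of 0.189 by limma without that library. Without the first or the third M28 library at 4 h the adjusted p by limma was 0.0791 or 0.0801.

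A test of the difference between genotypes in the change from 1 to 4 h asked where the courses differed, whether their levels moved apart or together. With its sign, the change was lower in M28 than in K326 in 4 members and higher in 0 (limma, adjusted p below 0.05). Of all genes, 0.827% and 0.449% were called so. A lower change can be a larger one in size. Nitab4.5_0000469g0170, 1 of the 4, changed by 0.05 in K326 and by −0.51 in M28. The median of this difference was −0.23 over members and −0.03 over all genes, and 28 members had an unadjusted p below 0.05, against 13.5% of all genes. For the 1 to 2 h change, 4 members were lower and 0 higher, against 0.587% and 0.27% of all genes. For the 2 to 4 h change limma called 0 of 100 in either direction, against 0.138% lower and 0.0204% higher, and 9 members had an unadjusted p below 0.05, against 10.2% of all genes.

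These small counts moved with single libraries. Without the third K326 library at 1 h they were 8 for the 1 to 4 h change, 8 for the 1 to 2 h change and 1 for the 2 to 4 h change. For the 1 to 4 h change the count was 0 without the third K326 library at 4 h, the third M28 library at 1 h or the second at 4 h. It was 1 without the second K326 library at 4 h, the first K326 library at 8 h, or the first or the third M28 library at 4 h. It was 2 without the first K326 library at 1 h, the second at 2 h, the first at 4 h or the third at 8 h, or the second M28 library at 1 or 2 h. For the 1 to 2 h change the count was 1 without the third K326 library at 2 h, the third M28 library at 1 h, or the first or second M28 library at 2 h. It was 2 without the second K326 library at 2 h, the first or the third at 8 h, the second M28 library at 0 h, the third at 2 h or 4 h, or the first at 8 h.

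**Figure D5:**
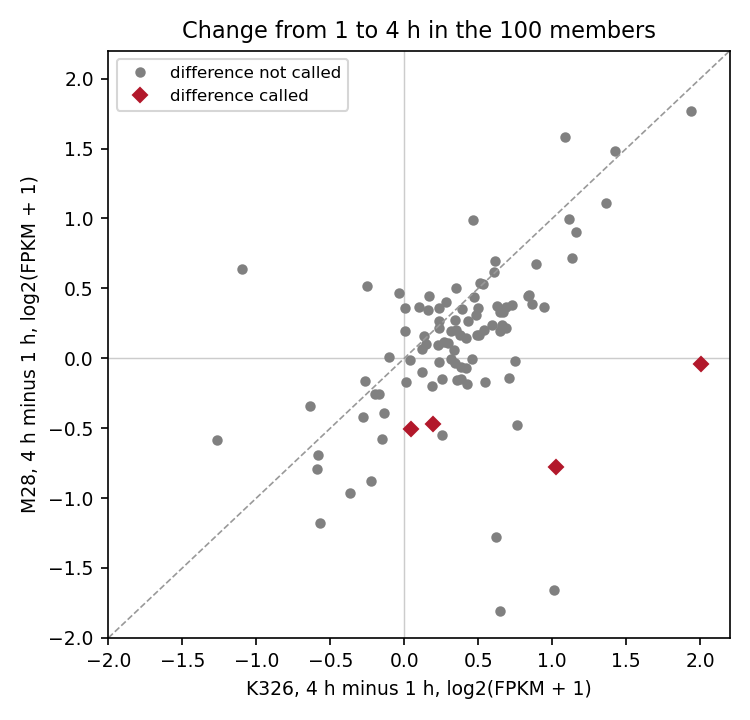
Change from 1 to 4 h in K326 (x axis) and M28 (y axis) on the log2(FPKM + 1) scale, one point per member, with a dashed line of equal change. Red diamonds are the 4 members whose change differed between genotypes by limma. Most points lie right of 0 and below the dashed line, as the median difference of −0.23 states.

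Nitab4.5_0000980g0290 was the member named for a change from 1 to 4 h that differed between genotypes. Over that time its levels in the genotypes came closer, with M28 minus K326 at 2.15 at 1 h and 0.35 at 4 h. The M28 libraries had 373, 519.6 and 547 FPKM at 0 h, 119.6, 154 and 150.5 at 1 h, 56.2, 68.4 and 91.2 at 2 h, 78.4, 71.4 and 96.8 at 4 h, and 412, 458 and 314 at 8 h. The K326 libraries had 45.2, 20.2 and 24.5 FPKM at 0 h, 31.4, 20.6 and 45.2 at 1 h, 27.4, 31.1 and 48.1 at 2 h, 55.4, 55.8 and 84.5 at 4 h, and 222, 232 and 185 at 8 h. M28 had its lowest values at 2 and 4 h and high values again at 8 h, while K326 was low to 2 h and higher at 4 and 8 h. The genotypes did not overlap at 0, 1, 2 or 8 h and overlapped at 4 h.

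The change from 1 to 4 h in Nitab4.5_0000980g0290 was 1.03 ± 0.27 in K326 (SE, limma, adjusted p = 0.00464) and −0.78 ± 0.27 in M28 (limma, adjusted p = 0.0404). The difference between them was −1.81 ± 0.382 (limma, adjusted p = 0.0189). Without the third K326 library at 4 h, the third M28 library at 1 h or the second M28 library at 4 h, its adjusted p by limma was 0.0607, 0.0534 or 0.0543.

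A course at some time at least 1 below both the 0 and the 8 h level was found in M28 for 4 members, against 0.5% of all genes. In K326 it was found for 0 members, against 0.694%. These counts are a description, since the 0 and 8 h levels chose the members. A high M28 level at 0 h favours both membership and such a course in M28. Nitab4.5_0000283g0170, named after its values were seen, was another of the 4. In M28 it had 249.8, 427 and 396 FPKM at 0 h, 106, 129 and 71.7 at 1 h, 64.5, 69.96 and 88.8 at 2 h, 112, 65.6 and 99.9 at 4 h, and 231, 213 and 130.1 at 8 h. In K326 it had 28.9, 17.1 and 23.0 FPKM at 0 h, 23.8, 10.3 and 17.4 at 1 h, 12.6, 15.6 and 16.6 at 2 h, 27.5, 24.2 and 30.6 at 4 h, and 71.5, 54.0 and 45.4 at 8 h. The K326 libraries of 1 h overlapped those of 0 h and those of 2 h, and every M28 library was above every K326 library of its time. The averaged difference was 2.15 ± 0.159 (SE, limma, adjusted p = 3.17e-11).

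Nitab4.5_0002388g0040, also named after its values were seen, met the rule and yet was nearly silent in M28. It was listed at 0 in all 3 K326 libraries at 0 h and had 0, 0.320 and 0.143 FPKM at 1 h, 0.626, 2.04 and 1.59 at 2 h, 3.28, 4.39 and 3.25 at 4 h, and 5.72, 9.93 and 4.09 at 8 h. The M28 libraries had 0.831, 0.479 and 0.413 FPKM at 0 h and 0, 0.674 and 0.181 at 4 h, and its highest library, at 8 h, had 2.53. The 0 h excess of M28 was below 1 FPKM, and K326 rose far beyond it. At 4 h it was lower in M28, by a log2 difference of −1.88 ± 0.357 (SE, limma, adjusted p = 0.000239). It was one of the 3 members lower in M28 on average.

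The members were set beside other genes grouped by the same 0 and 8 h values. Of the 1097 genes that rose by at least 1 in both genotypes, 36.1% were higher in M28 at 1 h, 22.1% at 2 h and 22.6% at 4 h, against 72%, 55% and 47% of the members. From 1 to 4 h, 65.6% of those genes rose in K326 and 47.9% in M28, against 44% and 20% of the members. These groups were formed from libraries other than those compared, and the difference between groups of genes was not tested.

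Another 48 genes rose in K326 and not in M28 without the 0 h excess. Of these, 10.4% were higher in M28 at 1 h, 0% at 2 h and 2.08% at 4 h, and 20.8%, 25% and 27.1% were lower. Their median differences were −0.04, −0.23 and −0.19, opposite in sign to those of the members. The 1947 genes that had the 0 h excess without the K326 rise were higher in M28 in 72.3%, 58.2% and 71.2%, with median differences of 0.56, 0.45 and 0.55. The members' medians at the same times were 0.64, 0.45 and 0.38. Averaged over 1, 2 and 4 h, 88% of the 1947 genes were higher in M28 and 0.411% lower, against 74% and 3% of the members.

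The IDs of the members fell on 97 scaffolds, of which 3 held 2 members. The places of the scaffolds on chromosomes were not known, so whether members cluster in the genome was not tested. The nearest listed neighbours on the same scaffolds, 113 tested genes that were no members, were higher in M28 in 48.7% and lower in 7.96% over 1, 2 and 4 h, against 45% and 11.9% of all genes. Their median difference was 0.19, and that of all genes was 0.15.

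One pair of members had adjacent IDs, Nitab4.5_0002937g0030 and Nitab4.5_0002937g0040, with 0 IDs listed between them. At 0 h Nitab4.5_0002937g0040 had 14.3, 10.3 and 11.1 FPKM in K326 and 162, 199 and 212 in M28, and at 4 h 32.9, 20.3 and 27.9 in K326 and 199, 183 and 201 in M28. Nitab4.5_0002937g0030 had 19.4, 20.4 and 18.8 FPKM in K326 and 34.7, 36.3 and 30.7 in M28 at 0 h, and 37.2, 36.3 and 31.8 in K326 and 42.9, 41.5 and 40.3 in M28 at 4 h. The genotypes did not overlap in either gene at either time, and the difference was much larger in the former. Averaged over 1, 2 and 4 h it was 2.43 ± 0.143 for Nitab4.5_0002937g0040 (SE, limma, adjusted p = 4.56e-13) and 0.32 ± 0.0471 for Nitab4.5_0002937g0030 (limma, adjusted p = 3.41e-06). Whether reads were shared between the adjacent models is not given in the sources used here.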

How the data were processed

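The values are FPKM as deposited by the authors, in a single table that holds each library in its own column. The submitters' processing notes name HISAT2, featureCounts, Trimmomatic and FastQC; versions, settings and genome build are not given in the sources used here. FPKM is the table's own name for the unit, and TPM over a larger gene set would look alike. All 30 columns were matched to samples by their names. Of 35519 genes, 8832 were 0 in every library, and 19599 with a mean of at least 1 FPKM were tested.

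Levels were log2(FPKM + 1), a scale on which the change of low genes is understated. One model with the 10 groups as terms was fitted across all genes with limma 3.58.1 in R 4.3.3, with a mean-variance trend, two-sided tests and Benjamini-Hochberg adjustment per comparison at 0.05, and was checked on simulated data. Comparisons used the 1, 2 and 4 h libraries, although all 30 entered the spread. Genotype comparisons at different times and the averaged one share libraries, as do the changes from 1 to 2, 2 to 4 and 1 to 4 h. Relative depth came from ratios of low values at 2582 genes.

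Members and lists were chosen with earlier results of these data known. Named were at most 2 members per direction and comparison with an adjusted p below 0.05, a change of 1 or more and 5 FPKM or more in the higher group's mean and no overlap of libraries (not asked of the difference of changes), largest first, plus the 2 most abundant members and the 2 with the largest 0 h difference. Alternatives changed the pseudocount, filter, scaling, block and libraries.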

Additional observations from a re-analysis of the deposited data

Results flagged for a closer look

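Of the 100 members, 4 changed differently from 1 to 4 h in the 2 genotypes by limma's test of the difference of the changes, all with a lower change in M28. Among them Nitab4.5_0000980g0290 had a difference of −1.81 on the log2 scale. In M28 it fell from 1 to 4 h, and in K326 it rose. The other calls and the libraries on which the count rests are given with that comparison above, and the cause was not tested. Groups of 3 libraries are too small for a check of single outlying libraries by gap and range.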

How the results depend on the processing

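Counts of called members for the comparisons of genotypes at 1, 2 and 4 h, for their average and for the changes within a genotype stayed within 1.5 times under the pseudocount of 0.1 FPKM, both filters, all 3 scalings and the 18 libraries alone. The rule itself was less stable. It was met by 242 genes with a pseudocount of 0.1 FPKM, by 57 with median-of-ratios scaling and by 48 with quantile normalization. Of the 100 members, 37 met it in all 12 omissions of one 0 or 8 h library, 27 under all 3 scalings and 17 under both. The share of genes above 0 for the 0 h difference in a left-out replicate averaged 88.05% with the smaller pseudocount. The 4 members whose 1 to 2 h change differed between genotypes became 2 with no filter, median-of-ratios, quantile normalization or the 18 libraries alone. The 4 for the 1 to 4 h change became 2 with the smaller pseudocount, median-of-ratios, equal totals, quantile normalization or the 18 libraries, and 1 with no filter. The added selection of the 34 members that met the rule after rescaling left 22 calls. The causes were not tested.

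Leaving out each library in turn gave 64 to 74 calls at 1 h, 47 to 60 at 2 h, 40 to 52 at 4 h and 75 to 79 for the average. In K326 it gave 17 to 28 for 1 to 2 h, 12 to 25 for 2 to 4 h and 41 to 50 for 1 to 4 h, and in M28 4 to 11, 4 to 9 and 21 to 32. For the differences of the changes it gave 1 to 8, 0 to 1 and 0 to 8, and for the rule 86 to 134 genes.

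With a replicate block the average over 1, 2 and 4 h gave 78 calls against 77, and the 1 h comparison gave 72. Deviations of same-numbered libraries had a mean correlation of 0.010 (lowest −0.298), and 17 of 135 pairs exceeded 0.1. Between libraries of different number the mean was −0.005, and 27 of 270 pairs exceeded 0.1. These values show no pairing by replicate number, but they cannot exclude it. Depth was not known, so the counting error of low genes is not given.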
